A study of Mus musculus with 9 samples.

Results

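The tumour necrosis factor (TNF) superfamily of ligands and the TNF receptor superfamily were followed here in whole mouse ear skin treated with anisomycin or imiquimod. Members were taken by gene symbol, but they were chosen with earlier results of these data known. The rule took any symbol beginning with Tnfsf or Tnfrsf, together with Tnf, Lta, Ltb, Ltbr, Fas, Fasl, Cd27, Cd70, Cd40, Cd40lg, Eda, Edar, Eda2r and Ngfr, on probe sets that carry a single symbol. This gave 43 genes among the 19938 tested, each with 1 probe set, of which 16 encode ligands and 27 encode receptors. The ligand genes Tnfsf12, Tnfsf13 and Tnfsfm13 share 1 probe set and were left out of the 43.

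The mice were female, of C57BL/6 background and 7 to 9 weeks old. One group of ears received anisomycin, an antibiotic that stops ribosomes from making protein and switches on stress kinases, at 2 mg/ml in 99.5% ethanol, with 10 µl put on each side of the ear. A second group received imiquimod, a Toll-like receptor ligand used in mice to induce a psoriasis-like dermatitis, as 10 mg of a 5% cream spread over the inner and outer sides of the ear. Both agents were given over 5 days, and the control group is labelled only as vehicle treated, so neither the ethanol nor the cream base nor the length of vehicle treatment can be separated from the agents. Each group held 3 arrays, and no label ties an array to a single mouse, so p-values measure the spread between these samples, which may in part be technical.

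Ligands of the TNF superfamily are made as trimeric membrane proteins, and several are cut from the cell surface. Their receptors fall into those with a death domain, which can recruit the caspase and necroptosis machinery, those that bind TRAF adaptors and lead to NF-kB and kinase signalling, and decoy-type receptors that lack a working signalling tail. In skin the TNF branch is known for driving inflammation of the epidermis and dermis, while ectodysplasin and its receptor are required for hair follicles and skin glands to form.

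Values are log2 expression, so a difference of 1 is a 2-fold change, and every comparison rests on 3 arrays per group. A gene was called when its adjusted p (limma, Benjamini-Hochberg over all 19938 genes) was under 0.05. Array medians lay between 6.01 and 6.10, and the 43 genes had a median SD of 0.117 on vehicle, 0.1 on anisomycin and 0.085 on imiquimod arrays. On the first principal component (74.9% of the variance) the vehicle arrays scored 51.7, 61.1 and 53.8, and the treated arrays -37 to -19.8. On the component that set the treatments apart (16.8% of the variance) the 3 anisomycin arrays scored -31.1, -19.4 and -9.48, replicate 3 being nearest to the imiquimod arrays, which scored 22.6 to 24.3. Vehicle arrays lay between them, at 0.955, -9.11 and -2.41, so that anisomycin replicate 3 was close to vehicle replicate 2. Keratinocyte markers were present in every group, with 9 of 10 measured and none under the 30th percentile of all genes. RNA came from whole tissue, so a lower level cannot tell fewer cells of a type from less RNA per cell.

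Against vehicle, 17 of the 43 genes were higher in anisomycin-treated ears, where 22.3% of all genes tested were higher, and 6 were lower, where 23.3% of all genes were lower. In imiquimod-treated ears 13 members were higher, beside 20.4% of all genes, and 10 were lower, beside 22.4%. The median difference of the 43 genes was 0.12 for anisomycin and 0.03 for imiquimod, while the medians over all genes were -0.01 and -0.03. Compared directly, 9 members were higher with anisomycin than with imiquimod (10.8% of all genes) and 2 were lower (9.59%). By the F test over the 3 groups, 27 of the 43 were called, beside 51.3% of all genes. Arrays of the groups compared did not overlap for 26 members with anisomycin against vehicle, 24 with imiquimod and 17 between the treatments. Of all 19938 genes, this held for 10222, 10326 and 7829, so a lack of overlap does not by itself set a member apart.

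Because both treatments are set against the same 3 vehicle arrays, a call in both is not 2 independent results, and it is used here only to sort the members. Higher in both were 12 members, beside 16.0% of all genes: Tnf, Ltb, Tnfsf9, Tnfsf14, Tnfrsf1a, Tnfrsf1b, Ltbr, Tnfrsf12a, Tnfrsf14, Tnfrsf21, Tnfrsf23 and Tnfrsf26. Lower in both were 6 members, beside 17.5% of all genes: Eda, Edar, Ngfr, Tnfrsf11a, Tnfrsf19 and Tnfrsf25. No member was called in opposite directions by the treatments, and 15 were called in neither. Of all 19938 genes, 73 were higher with anisomycin and lower with imiquimod, 43 were the reverse, and 9120 were called in neither. Opposite calls were rare among all genes, so their absence among the members does not set the family apart.

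**Figure D1:**
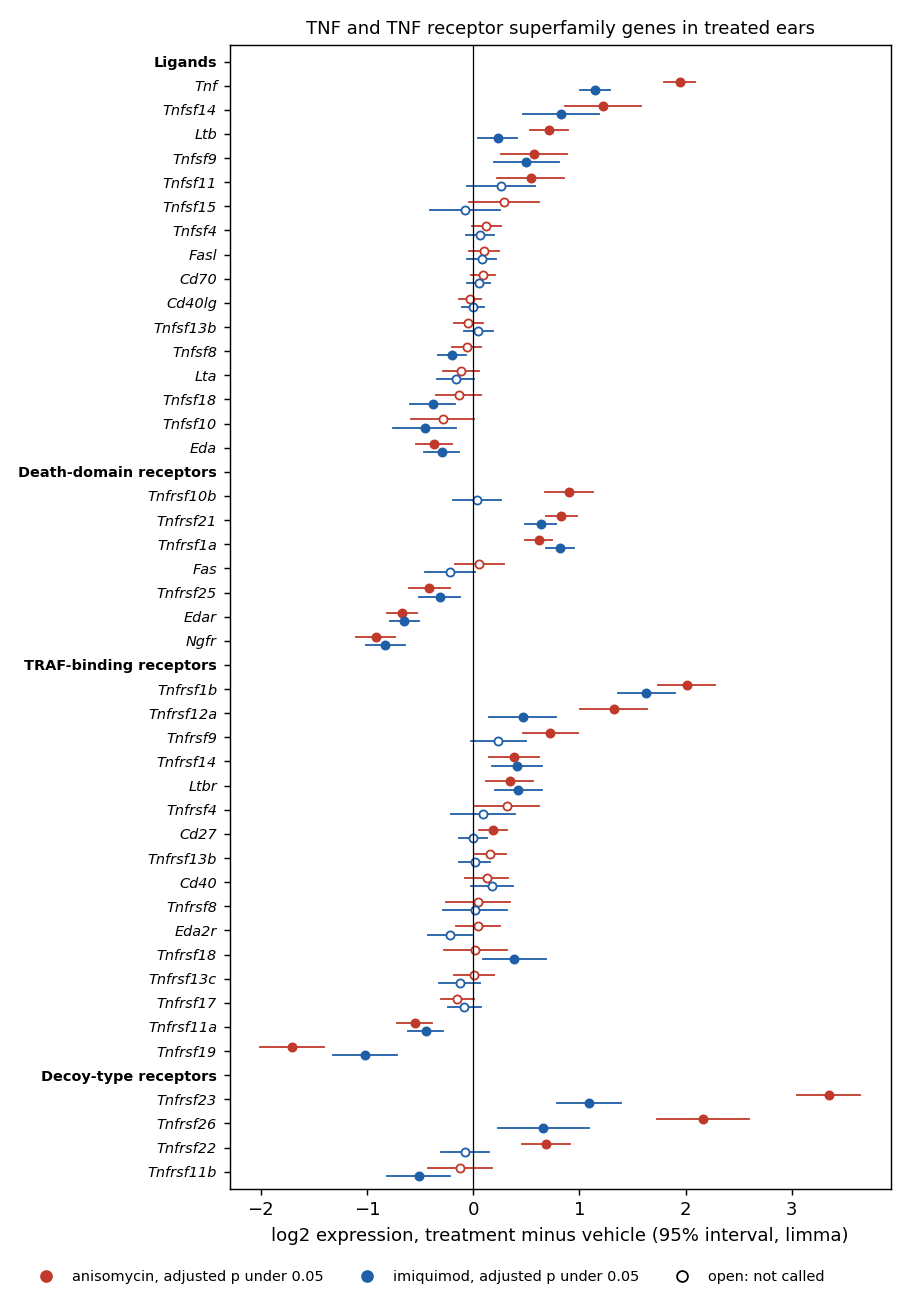
Difference in log2 expression from vehicle (x axis) for all 43 genes, grouped as ligands and as death-domain, TRAF-binding and decoy-type receptors, for anisomycin (red) and imiquimod (blue), with 95% intervals from limma; filled points passed adjusted p under 0.05 and open points did not. The largest rise was that of Tnfrsf23 with anisomycin, at 3.35, and the largest fall that of Tnfrsf19 with anisomycin, at -1.71.

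The gene for TNF itself, the main inflammatory ligand of the family, rose with both agents and further with anisomycin. Tnf read 6.31, 6.41 and 6.46 on the vehicle arrays, 8.42, 8.33 and 8.27 on the anisomycin arrays and 7.62, 7.47 and 7.53 on the imiquimod arrays. The 3 groups did not overlap, with imiquimod between vehicle and anisomycin. Tnf was 3.85-fold higher than vehicle with anisomycin (log2 difference 1.94, SE 0.06, adjusted p = 5.57e-08) and 2.22-fold higher with imiquimod (1.15, SE 0.06, adjusted p = 1.77e-06). The direct difference of 0.80 between the treatments was called, with an adjusted p of 0.000109.

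Both TNF receptor genes rose with each agent. Tnfrsf1a, the death-domain receptor made by most cells, read 9.54, 9.50 and 9.55 with vehicle, 10.06, 10.23 and 10.15 with anisomycin and 10.41, 10.29 and 10.37 with imiquimod. Every treated array lay above every vehicle array, and every imiquimod array lay above every anisomycin array. The rise was 0.62 (SE 0.06, adjusted p = 2.45e-05) for anisomycin and 0.82 (adjusted p = 6.7e-06) for imiquimod. The direct difference, -0.21 (adjusted p = 0.035), was a weaker call: it was lost without anisomycin replicate 1 (-0.16, adjusted p = 0.117) or 3 (-0.21, 0.0621) and without imiquimod replicate 1 (-0.18, 0.121) or 3 (-0.20, 0.106). That call was also lost with a trended and robust prior (adjusted p = 0.0509), all rows tested (0.0547), the replicate block (0.0705) and only the 2 groups compared (0.0521). Tnfrsf1b, the TNF receptor that lacks a death domain and is strongest on blood-derived and endothelial cells, read 6.80, 6.95 and 6.66 with vehicle, 8.98, 8.91 and 8.56 with anisomycin and 8.39, 8.34 and 8.57 with imiquimod. All treated arrays stood well above vehicle, and the treated groups overlapped because anisomycin replicate 3 fell just below imiquimod replicate 3. Tnfrsf1b was 4.03-fold higher with anisomycin (2.01, SE 0.12, adjusted p = 1.7e-06) and 3.10-fold higher with imiquimod (1.63, adjusted p = 8.02e-06). Between treatments it differed by 0.38 (95% interval 0.11 to 0.65), which did not pass (adjusted p = 0.053), whereas without anisomycin replicate 3 the difference was 0.51 (adjusted p = 0.00766) and without vehicle replicate 2 the adjusted p was 0.0455.

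Markers of neutrophils and of macrophages and monocytes were mostly higher than vehicle with each agent, beside 22.3% of all genes with anisomycin and 20.4% with imiquimod. Of 11 neutrophil markers, 10 were higher with anisomycin and 9 with imiquimod, and the log2 of their summed level ran from 8.85 to 9.00 with vehicle, 12.24 to 12.68 with anisomycin and 13.00 to 13.11 with imiquimod. In vehicle ears 8 of these 11 genes, S100a8, Ly6g and Cxcr2 among them, lay under the 30th percentile of all genes. Of 10 macrophage and monocyte markers, 9 were higher with anisomycin and 8 with imiquimod, with summed levels of 11.44 to 11.67, 12.50 to 12.65 and 12.53 to 12.55 in the same order. The part of these cells in the rise of Tnf, Tnfrsf1b and the members below was not tested.

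The lymphotoxin branch rose only in part. Ltb, which encodes the membrane-bound subunit of the lymphotoxin heterotrimer, read 5.70, 5.78 and 5.82 with vehicle, 6.66, 6.38 and 6.40 with anisomycin and 5.94, 6.08 and 5.96 with imiquimod. The groups did not overlap, and the imiquimod arrays were close to vehicle. Ltb rose by 0.71 with anisomycin (SE 0.08, adjusted p = 7.18e-05) and by 0.23 with imiquimod (adjusted p = 0.0445), with a direct difference of 0.48 (adjusted p = 0.00366). The imiquimod call was lost without any 1 of the 6 arrays compared, the difference then being 0.19 to 0.26 and the adjusted p 0.0584 to 0.151. That call was also lost with a trended and robust prior (adjusted p = 0.0502), centring on genes of stable rank (0.155), all rows tested (0.0649) and the replicate block (0.08). Lta, the partner subunit, read 4.59, 4.86 and 4.61 with vehicle, 4.59, 4.52 and 4.61 with anisomycin and 4.49, 4.59 and 4.48 with imiquimod. These values overlap, lie under the 30th percentile of all genes in each group, and gave no call (adjusted p = 0.262 and 0.114).

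Tnfsf14, known as LIGHT, a ligand shared by the lymphotoxin receptor and by Tnfrsf14, read 5.54, 5.46 and 5.14 with vehicle, 6.78, 6.81 and 6.22 with anisomycin and 6.17, 6.16 and 6.30 with imiquimod. Treated and vehicle arrays were apart, while anisomycin replicate 3 lay within the imiquimod range. The rise was 1.22 for anisomycin (SE 0.16, adjusted p = 0.000178) and 0.83 for imiquimod (adjusted p = 0.00221), and the direct difference of 0.39 did not pass (95% interval 0.03 to 0.75, adjusted p = 0.122), although without anisomycin replicate 3 it was 0.59 (adjusted p = 0.00678). Ltbr, the receptor of the lymphotoxin heterotrimer, read 7.36, 7.62 and 7.21 with vehicle, 7.74, 7.78 and 7.70 with anisomycin and 7.92, 7.82 and 7.72 with imiquimod. It was 0.34 higher with anisomycin (adjusted p = 0.0169) and 0.42 higher with imiquimod (adjusted p = 0.00638). The anisomycin call of Ltbr was lost without anisomycin replicate 2 (0.33, adjusted p = 0.0572), vehicle replicate 1 (0.32, 0.0527) or vehicle replicate 3 (0.25, 0.0542). That call was also lost with repeated quantile normalization (adjusted p = 0.0521) and with centring on genes of stable rank (0.0669). Tnfrsf14, the other receptor of LIGHT, rose by 0.38 (adjusted p = 0.0131) and 0.41 (adjusted p = 0.00961), and its anisomycin call was lost without vehicle replicate 3 (0.33, adjusted p = 0.051).

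Tnfrsf12a, the receptor of TWEAK and a gene raised in many injured tissues, read 7.56, 7.55 and 7.82 with vehicle, 9.30, 8.91 and 8.68 with anisomycin and 8.12, 8.10 and 8.12 with imiquimod. The groups did not overlap, and anisomycin was highest. Tnfrsf12a was 2.5-fold higher with anisomycin (1.32, SE 0.14, adjusted p = 4.71e-05) and 0.47 higher on the log2 scale with imiquimod (adjusted p = 0.0229), a direct difference of 0.86 (adjusted p = 0.0033). The imiquimod call was lost without any of the 3 imiquimod arrays or without vehicle replicate 1 or 2, the difference then being 0.42 to 0.47 and the adjusted p 0.0587 to 0.0722.

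**Figure D2:**
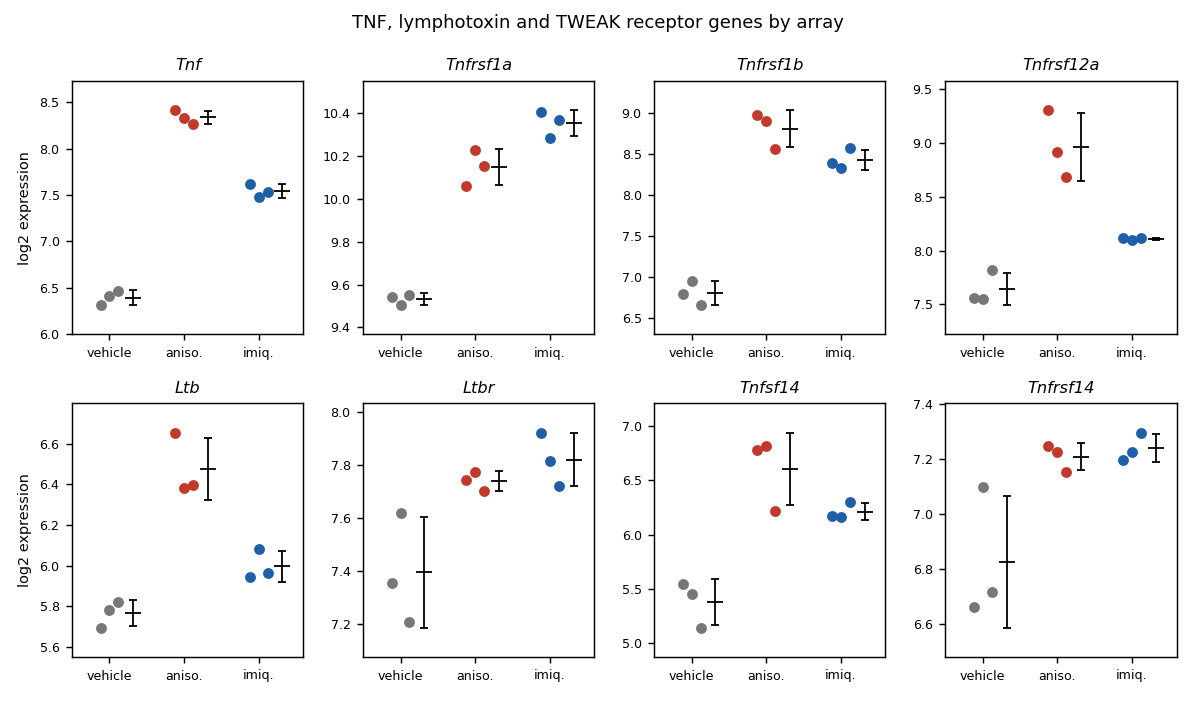
Log2 expression (y axis, scaled separately in each panel) of Tnf, its receptor genes Tnfrsf1a and Tnfrsf1b, the TWEAK receptor gene Tnfrsf12a and genes of the lymphotoxin and LIGHT branch on each array; black marks are means with SD, n = 3. Tnf ran from 6.31 to 6.46 with vehicle, 7.47 to 7.62 with imiquimod and 8.27 to 8.42 with anisomycin, whereas in the Tnfrsf1a panel the imiquimod arrays are the highest, at 10.29 to 10.41.

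The largest difference between the treatments lay among the receptors related to TRAIL, a ligand that triggers apoptosis through its death receptor. Tnfrsf22, Tnfrsf23 and Tnfrsf26 lie next to each other in RefSeq's gene order, with no protein-coding gene between them. The products of Tnfrsf22 and Tnfrsf23 are mouse decoy receptors for TRAIL. Tnfrsf23 read 6.62, 6.40 and 6.57 with vehicle, 10.19, 9.78 and 9.66 with anisomycin and 7.46, 7.69 and 7.71 with imiquimod. No groups overlapped. Tnfrsf23 was 10.2-fold higher than vehicle with anisomycin (3.35, SE 0.13, adjusted p = 1.49e-07) and 2.13-fold higher with imiquimod (1.09, adjusted p = 0.000139). Directly compared, anisomycin was 4.79-fold above imiquimod (2.26, adjusted p = 1.77e-05).

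Its neighbours moved less far. Tnfrsf26, a related receptor, read 5.62, 5.76 and 5.52 with vehicle, 8.20, 7.86 and 7.31 with anisomycin and 6.12, 6.34 and 6.42 with imiquimod. Again no groups overlapped, and the anisomycin arrays had the widest spread of any member, with an SD of 0.449. Tnfrsf26 rose by 2.16 (SE 0.19, adjusted p = 1.65e-05) and by 0.66 (adjusted p = 0.0197), with a direct difference of 1.5 (adjusted p = 0.0011). The imiquimod call was lost without imiquimod replicate 2 (0.64, adjusted p = 0.0612) or 3 (0.60, 0.0688) and without vehicle replicate 1 (0.65, 0.0519) or 3 (0.60, 0.0684). Tnfrsf22 read 7.21, 7.14 and 7.16 with vehicle, 7.999, 7.986 and 7.579 with anisomycin and 7.07, 7.09 and 7.12 with imiquimod, so that its anisomycin arrays were high and its imiquimod arrays lay just under the vehicle range. It was 0.69 above vehicle with anisomycin (adjusted p = 0.000397) and -0.08 from it with imiquimod (95% interval -0.30 to 0.15, adjusted p = 0.606), a direct difference of 0.76 (adjusted p = 0.00134). Tnfrsf22 and Tnfrsf23 are close paralogs, so probes could share signal between them and the values of either gene alone are uncertain.

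Tnfrsf10b, the death-domain receptor of TRAIL in mice, was called higher with anisomycin but not with imiquimod, and the direct difference passed. Its values were 6.813, 7.003 and 6.989 with vehicle, 8.05, 7.81 and 7.65 with anisomycin and 6.88, 6.99 and 7.04 with imiquimod. The anisomycin arrays stood apart from the other 6, which overlapped. Tnfrsf10b was 1.87-fold higher with anisomycin (0.90, SE 0.10, adjusted p = 6.53e-05), differed from vehicle by 0.03 with imiquimod (95% interval -0.19 to 0.26, adjusted p = 0.835), and differed by 0.87 between treatments (adjusted p = 0.000665). The ligand gene Tnfsf10 read 5.37, 5.67 and 5.05 with vehicle, 5.05, 5.12 and 5.05 with anisomycin and 4.94, 4.80 and 4.99 with imiquimod. It was lower than vehicle with imiquimod (-0.46, adjusted p = 0.0195), a call lost without imiquimod replicate 2 (-0.40, adjusted p = 0.0746), and was -0.29 from vehicle with anisomycin (adjusted p = 0.107), a difference that passed without vehicle replicate 3 (-0.44, adjusted p = 0.00662). The direct difference of Tnfsf10, 0.17, did not pass (adjusted p = 0.446), but did so with array weights (0.21, 0.0384). Both treated groups had mean levels of Tnfsf10 under the 30th percentile of all genes.

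**Figure D3:**
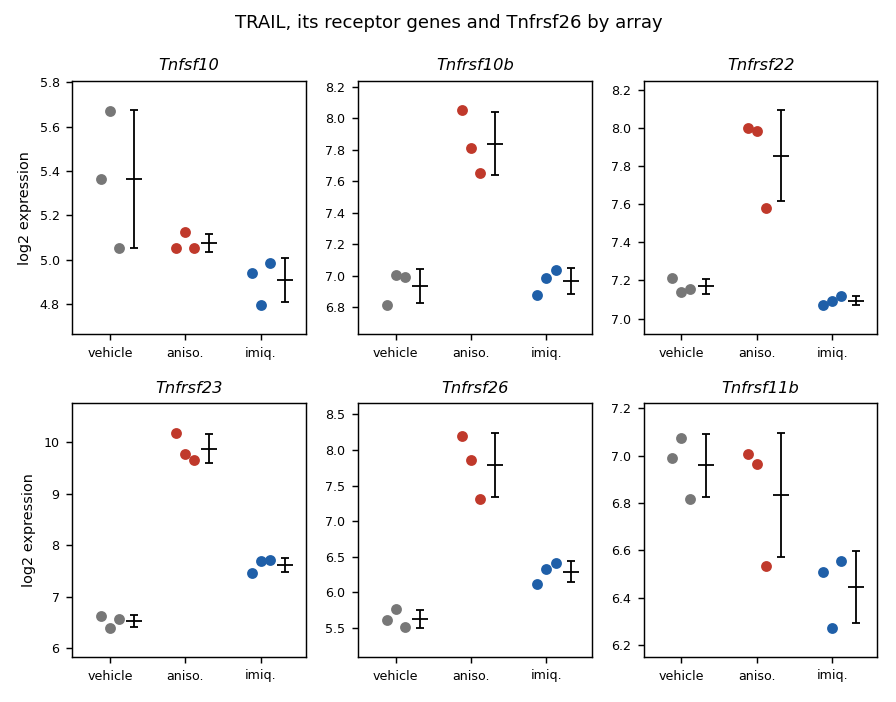
Log2 expression (y axis, scaled separately in each panel) of the TRAIL gene Tnfsf10, its receptor genes Tnfrsf10b, Tnfrsf22 and Tnfrsf23, the neighbouring Tnfrsf26, and Tnfrsf11b on each array; black marks are means with SD, n = 3. Tnfrsf23 ran from 9.66 to 10.19 with anisomycin against 7.46 to 7.71 with imiquimod, and the imiquimod arrays of Tnfrsf10b, at 6.88 to 7.04, overlap vehicle.

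The other death-domain receptors moved in different directions. Tnfrsf21, also called death receptor 6, read 8.40, 8.22 and 8.30 with vehicle, 9.19, 9.19 and 9.04 with anisomycin and 8.96, 8.92 and 8.95 with imiquimod. Its groups did not overlap, and it rose by 0.83 (SE 0.06, adjusted p = 7.04e-06) and 0.64 (adjusted p = 4.69e-05). The direct difference of 0.20 missed the threshold (adjusted p = 0.0598) and passed without anisomycin replicate 3 (0.25, adjusted p = 0.0255), vehicle replicate 1 (0.20, 0.0485) or vehicle replicate 2 (0.20, 0.039). Fas, the receptor of Fas ligand, read 6.05, 6.15 and 5.90 with vehicle, 6.11, 6.14 and 6.02 with anisomycin and 5.85, 5.60 and 6.00 with imiquimod. The treated groups each overlapped vehicle, with differences of 0.06 (95% interval -0.18 to 0.29, adjusted p = 0.697) and -0.22 (-0.45 to 0.02, adjusted p = 0.126). Without imiquimod replicate 3 the imiquimod difference of Fas was -0.31 (adjusted p = 0.0405), and that between treatments was 0.37 (adjusted p = 0.0478). Fasl, made by cytotoxic lymphocytes, read 4.27, 4.09 and 4.15 with vehicle, 4.28, 4.19 and 4.35 with anisomycin and 4.26, 4.24 and 4.24 with imiquimod, all under the 30th percentile of all genes, with adjusted p of 0.216 and 0.354. Tnfrsf25, a death-domain receptor known mainly from T cells, fell by 0.41 with anisomycin (adjusted p = 0.00309) and by 0.32 with imiquimod (adjusted p = 0.0143), the latter lost without imiquimod replicate 3 (-0.30, adjusted p = 0.0501), and its ligand gene Tnfsf15 was not called (0.29, adjusted p = 0.145, and -0.08, 0.716).

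Among receptors and ligands known from lymphocytes, Tnfrsf9, a costimulatory receptor induced on activated lymphocytes, read 6.32, 6.69 and 6.27 with vehicle, 7.26, 7.22 and 6.98 with anisomycin and 6.65, 6.62 and 6.72 with imiquimod. Its anisomycin arrays were above all others, while imiquimod and vehicle overlapped. Tnfrsf9 rose by 0.73 with anisomycin (adjusted p = 0.000555) and was 0.24 above vehicle with imiquimod (95% interval -0.02 to 0.49, adjusted p = 0.129), which passed without vehicle replicate 2 (0.37, adjusted p = 0.00893). The direct difference of 0.49 (adjusted p = 0.0157) was lost without anisomycin replicate 1 (0.43, adjusted p = 0.0589) or 2 (0.46, 0.0611) and without imiquimod replicate 1 (0.49, 0.0537) or 2 (0.47, 0.0594). Its ligand gene Tnfsf9 read 4.89, 4.51 and 5.03 with vehicle, 5.28, 5.61 and 5.26 with anisomycin and 5.32, 5.24 and 5.37 with imiquimod. Its mean with vehicle lay under the 30th percentile of all genes. Tnfsf9 rose by 0.57 (adjusted p = 0.00679) and 0.50 (adjusted p = 0.0148), and the imiquimod call was lost without imiquimod replicate 3 (0.47, adjusted p = 0.0507).

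Cd27, a costimulatory receptor of T cells, read 5.10, 5.16 and 5.21 with vehicle, 5.25, 5.38 and 5.40 with anisomycin and 5.19, 5.15 and 5.12 with imiquimod. Mean levels of Cd27 with vehicle and with imiquimod lay under the 30th percentile of all genes. The anisomycin arrays were higher than the rest by a narrow margin, 0.19 above vehicle (adjusted p = 0.0231) and 0.19 above imiquimod (adjusted p = 0.0433). The first call was lost without anisomycin replicate 2 (0.17, adjusted p = 0.0809), anisomycin replicate 3 (0.16, 0.0749) or vehicle replicate 1 (0.16, 0.0736). Centring the arrays on 1000 genes of stable rank also ended it (0.11, adjusted p = 0.151), as did fitting only the 2 groups compared (adjusted p = 0.0561). The call against imiquimod was lost without any imiquimod array or without anisomycin replicate 2 or 3, the difference then being 0.16 to 0.21 and the adjusted p 0.0785 to 0.137. It was also lost with repeated quantile normalization (adjusted p = 0.0846), with centring on genes of stable rank (0.0522) and with all rows tested (0.0652). Tnfrsf18, a receptor typical of regulatory T cells, was 0.39 higher with imiquimod (adjusted p = 0.0401) and 0.02 from vehicle with anisomycin (95% interval -0.28 to 0.32). That call was lost without anisomycin replicate 2 (adjusted p = 0.0561), vehicle replicate 2 (0.134) or 3 (0.0869), or any imiquimod array (0.0526 to 0.133), and the difference ran from 0.28 to 0.44 in these fits. Repeated quantile normalization (adjusted p = 0.0612), centring on genes of stable rank (0.0558), all rows tested (0.0613) and the replicate block (0.0522) also ended the call. The direct difference of Tnfrsf18, -0.37, did not pass (adjusted p = 0.0834), but did so without anisomycin replicate 3 (-0.46, adjusted p = 0.0487) and with array weights (-0.30, 0.00962).

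The ligand genes Tnfsf18 and Tnfsf8, whose products bind Tnfrsf18 and Tnfrsf8, were lower with imiquimod, by 0.38 (adjusted p = 0.00954) and 0.20 (adjusted p = 0.0225), at levels under the 30th percentile of all genes in every group. With anisomycin they stood -0.14 and -0.06 from vehicle (adjusted p = 0.287 and 0.451). Their direct differences of 0.245 and 0.137 did not pass (adjusted p = 0.109 and 0.146), but did so with array weights (0.0361 and 0.0435). The imiquimod call of Tnfsf8 was lost without imiquimod replicate 1 (-0.15, adjusted p = 0.0849) or 2 (-0.21, 0.051) and without vehicle replicate 2 (-0.18, 0.0556) or 3 (-0.17, 0.067). Centring the arrays on their medians also ended it (-0.16, adjusted p = 0.0621). Cd40, the receptor through which T cells activate antigen-presenting cells, read 6.38, 6.59 and 6.46 with vehicle, 6.75, 6.63 and 6.44 with anisomycin and 6.63, 6.59 and 6.75 with imiquimod. These overlap, with differences of 0.13 (95% interval -0.07 to 0.33, adjusted p = 0.287) and 0.18 (-0.02 to 0.38, adjusted p = 0.148). Its ligand gene Cd40lg, and Cd70, Tnfsf4, Tnfrsf4, Tnfrsf8 and Eda2r, were not called either. Of these, Cd40lg, Cd70, Tnfsf4 and Eda2r lay under the 30th percentile in each group, and Tnfrsf4, the receptor of Tnfsf4, was 0.32 above vehicle with anisomycin (95% interval 0.02 to 0.62, adjusted p = 0.0775). That difference of Tnfrsf4 passed without anisomycin replicate 3 (0.42, adjusted p = 0.0381) or imiquimod replicate 1 (0.32, 0.0325), and Eda2r passed without imiquimod replicate 3 for imiquimod (-0.29, adjusted p = 0.0368). Eda2r was 0.26 higher with anisomycin than with imiquimod (adjusted p = 0.0794), and this passed without anisomycin replicate 3 (0.32, adjusted p = 0.0487), imiquimod replicate 3 (0.34, 0.0491) or vehicle replicate 2 (0.26, 0.0465).

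The B-cell survival ligand gene Tnfsf13b and its receptor genes Tnfrsf13b, Tnfrsf13c and Tnfrsf17 were not called in any comparison. Their differences from vehicle ran from -0.15 for Tnfrsf17 to 0.16 for Tnfrsf13b with anisomycin, and from -0.13 for Tnfrsf13c to 0.05 for Tnfsf13b with imiquimod. Leaving out 1 array made 2 of them pass: Tnfrsf13b without anisomycin replicate 2 (0.22, adjusted p = 0.0217) and Tnfrsf17 without anisomycin replicate 3 (-0.21, 0.0355). The B and plasma cell markers Ms4a1, Cd79a, Pax5 and Jchain lay under the 30th percentile in all groups, and of the 7 measured 1 (Sdc1, a surface proteoglycan that keratinocytes also make) was higher with anisomycin and 2 (Sdc1 and Blnk) with imiquimod. Their summed level, most of it Sdc1 at 9.25 with vehicle, 10.18 with anisomycin and 10.23 with imiquimod, ran from 9.67 to 9.91 with vehicle, 10.49 to 10.58 with anisomycin and 10.60 to 10.63 with imiquimod. Of 11 T-cell markers, 3 were higher and 4 lower with anisomycin, and 0 higher and 3 lower with imiquimod. These and the B-cell counts stand beside 22.3% of all genes higher and 23.3% lower with anisomycin, and 20.4% and 22.4% with imiquimod. Summed levels of the T-cell markers were 10.51 to 10.69 with vehicle, 10.36 to 10.56 with anisomycin and 10.42 to 10.49 with imiquimod. Cd3d and Ctla4 lay under the 30th percentile throughout. The part of T or B cells in the values of these members was not tested.

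The branch around RANK, which controls bone resorption and also keratinocyte and Langerhans cell biology, moved in different directions. Tnfsf11, its ligand RANKL, rose by 0.54 with anisomycin (SE 0.14, adjusted p = 0.0111) and was 0.26 above vehicle with imiquimod (95% interval -0.06 to 0.58, adjusted p = 0.173). The direct difference of Tnfsf11, 0.28, did not pass (95% interval -0.04 to 0.60, adjusted p = 0.223), but did so with array weights (0.31, 0.0167). Tnfrsf11a, the receptor RANK, fell by 0.55 (adjusted p = 0.000213) and 0.45 (adjusted p = 0.000869), and its treated arrays were all below vehicle. Tnfrsf11b, the soluble decoy osteoprotegerin, read 6.99, 7.08 and 6.82 with vehicle, 7.005, 6.966 and 6.533 with anisomycin and 6.51, 6.27 and 6.56 with imiquimod. Only anisomycin replicate 3 came down to the imiquimod range. Tnfrsf11b fell by 0.51 with imiquimod (adjusted p = 0.0112) and differed from vehicle by -0.13 with anisomycin (95% interval -0.42 to 0.17), and the direct difference of 0.39 did not pass (adjusted p = 0.0708), but did so without anisomycin replicate 3 (0.54, adjusted p = 0.0066) and with array weights (0.50, 0.0011).

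Eda, the ligand ectodysplasin, read 6.63, 6.87 and 6.86 with vehicle, 6.47, 6.38 and 6.40 with anisomycin and 6.56, 6.51 and 6.39 with imiquimod. Edar, its receptor, read 6.31, 6.44 and 6.45 with vehicle, 5.68, 5.74 and 5.76 with anisomycin and 5.86, 5.71 and 5.70 with imiquimod. For both genes every treated array was below every vehicle array and the treatments overlapped. Eda fell by 0.37 (adjusted p = 0.00276) and 0.30 (adjusted p = 0.0098), and Edar fell by 0.67 (SE 0.06, adjusted p = 2.19e-05) and 0.65 (adjusted p = 3.61e-05). Edaradd, the adaptor that links Edar to its signal, fell with anisomycin (-0.60, adjusted p = 0.00685) and stood 0.01 from vehicle with imiquimod (95% interval -0.32 to 0.34), and the treatments differed directly (-0.61, adjusted p = 0.0167).

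Tnfrsf19, also called TROY and expressed in hair follicle stem cells, fell furthest. It read 9.46, 9.13 and 9.28 with vehicle, 7.39, 7.56 and 7.80 with anisomycin and 8.04, 8.37 and 8.41 with imiquimod, with no overlap and imiquimod in the middle. Tnfrsf19 was 3.26-fold lower with anisomycin (-1.71, SE 0.13, adjusted p = 8.06e-06) and 2.03-fold lower with imiquimod (-1.02, adjusted p = 0.000233), a direct difference of -0.69 (adjusted p = 0.00741). Ngfr, the low-affinity neurotrophin receptor found on Schwann cells and nerves, read 7.93, 7.70 and 7.68 with vehicle, 6.80, 6.80 and 6.95 with anisomycin and 6.86, 6.93 and 7.04 with imiquimod. The treatments overlapped, both below vehicle, and Ngfr fell by 0.92 (SE 0.08, adjusted p = 1.77e-05) and 0.83 (adjusted p = 4.39e-05).

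Of 10 hair follicle markers, 1 was higher and 7 lower with anisomycin, and 2 were higher and 4 lower with imiquimod, with summed levels of 11.97 to 12.25 for vehicle, 10.73 to 11.42 for anisomycin and 11.34 to 11.77 for imiquimod. Of 6 Schwann cell and melanocyte markers measured, 4 were lower with anisomycin and 5 with imiquimod, with summed levels of 9.71 to 9.78, 8.91 to 9.36 and 9.16 to 9.29. Markers of other ear tissues also fell, among them all 8 of skeletal muscle and all 7 of adipocytes with each agent. The marker counts stand beside 22.3% of all genes higher and 23.3% lower with anisomycin, and 20.4% and 22.4% with imiquimod. The part of lost or diluted tissue in the lower values of Eda, Edar, Tnfrsf19 and Ngfr was not tested.

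**Figure D4:**
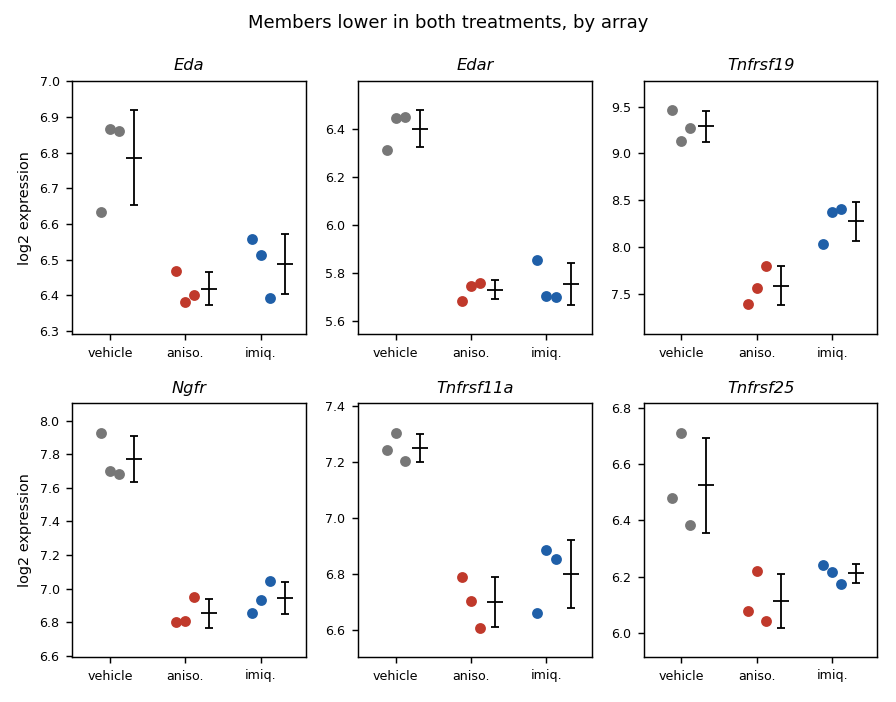
Log2 expression (y axis, scaled separately in each panel) of the 6 members called lower with both agents on each array; black marks are means with SD, n = 3. In all 6 panels the treated arrays lie below the vehicle arrays, and in the Tnfrsf19 panel anisomycin, at 7.39 to 7.80, is also below imiquimod, at 8.04 to 8.41. Of all 19938 genes, 10222 had no overlap with vehicle, in either direction, for anisomycin and 10326 for imiquimod.

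Genes that carry the receptor signal into the cell were followed as 3 lists. Among 31 measured adaptors, kinases and death effectors, 17 were higher with anisomycin, beside 22.3% of all genes, and 7 lower, beside 23.3%. Their median was 0.25. With imiquimod 13 of the 31 were higher, beside 20.4% of all genes, and 6 lower, beside 22.4%, with a median of 0.20. The imiquimod counts were 8 higher without imiquimod replicate 3 and 3 lower without imiquimod replicate 1 or 2 or vehicle replicate 1. Ripk3 and Mlkl, the kinase and the membrane effector of necroptosis, rose by 1.86 and 1.46 with anisomycin (adjusted p = 1.31e-07 and 4.4e-07) and by 1.52 and 1.19 with imiquimod (7e-07 and 2.24e-06). Casp8, the caspase that starts death-receptor apoptosis, rose by 0.76 (adjusted p = 3.92e-05) and 0.64 (0.000144). The feedback inhibitor Tnfaip3 rose by 1.84 with anisomycin (adjusted p = 1.44e-05) and 0.60 with imiquimod (0.0126), a direct difference of 1.24 (adjusted p = 0.00115). Traf1, an adaptor that is itself a target of NF-kB, rose by 1.42 with anisomycin (adjusted p = 4.71e-05), was 0.25 above vehicle with imiquimod (95% interval -0.09 to 0.59, adjusted p = 0.221) and differed by 1.17 between treatments (adjusted p = 0.00113). Traf5, an adaptor of several costimulatory receptors, fell by 0.90 (adjusted p = 9.06e-06) and 0.74 (4e-05), and the deubiquitinase gene Cyld fell by 0.44 (adjusted p = 0.00449) and 0.60 (0.000761).

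All 8 measured NF-kB subunit and inhibitor genes but 1 were higher with each agent, beside 22.3% of all genes with anisomycin and 20.4% with imiquimod. The exceptions were Rel with anisomycin (0.25, adjusted p = 0.203) and Relb with imiquimod (0.10, 0.482). Bcl3, a nuclear cofactor of NF-kB subunits, rose furthest, by 2.65 with anisomycin (adjusted p = 3.49e-07) and 2.53 with imiquimod (7.46e-07). Nfkb2, the precursor used by the lymphotoxin receptor and related receptors, rose by 1.25 (adjusted p = 3.19e-06) and 0.32 (0.0116), and its direct difference was 0.92 (adjusted p = 0.000196). Rela, Relb, Nfkbib and Nfkbie were likewise higher with anisomycin than with imiquimod (0.25 to 0.68), so that 5 of the 8 passed directly. Of the 31 adaptors, kinases and effectors, 8 did so upwards and 1, Edaradd, downwards. In this comparison 10.8% of all genes were higher and 9.59% lower. The upward count among the 31 was 3 without imiquimod replicate 1 and 4 without anisomycin replicate 1 or 2 or imiquimod replicate 2. The downward count was 0 without anisomycin replicate 2 or imiquimod replicate 1 or 3, and 2 without anisomycin replicate 3.

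Among 5 genes of ligand and receptor shedding, 2 rose and 2 fell with each agent. These counts stand beside 22.3% of all genes higher and 23.3% lower with anisomycin, and 20.4% and 22.4% with imiquimod. With anisomycin 1 rose without anisomycin replicate 2 or 3 or vehicle replicate 2 or 3, and with imiquimod 1 fell without imiquimod replicate 2 or 3. Timp3, an inhibitor of the protease that releases TNF, fell by 1.32 (SE 0.11, adjusted p = 1.38e-05) and 1.27 (2.44e-05). Adam10, a related surface protease, rose by 0.75 (adjusted p = 1.13e-05) and 0.54 (0.000114). Adam17, the TNF-releasing protease itself, was not called (0.06, adjusted p = 0.684, and 0.24, 0.0682), while of its partner genes Rhbdf2 rose by 0.32 and 0.50 and Rhbdf1 fell by 0.58 and 0.23.

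**Figure D5:**
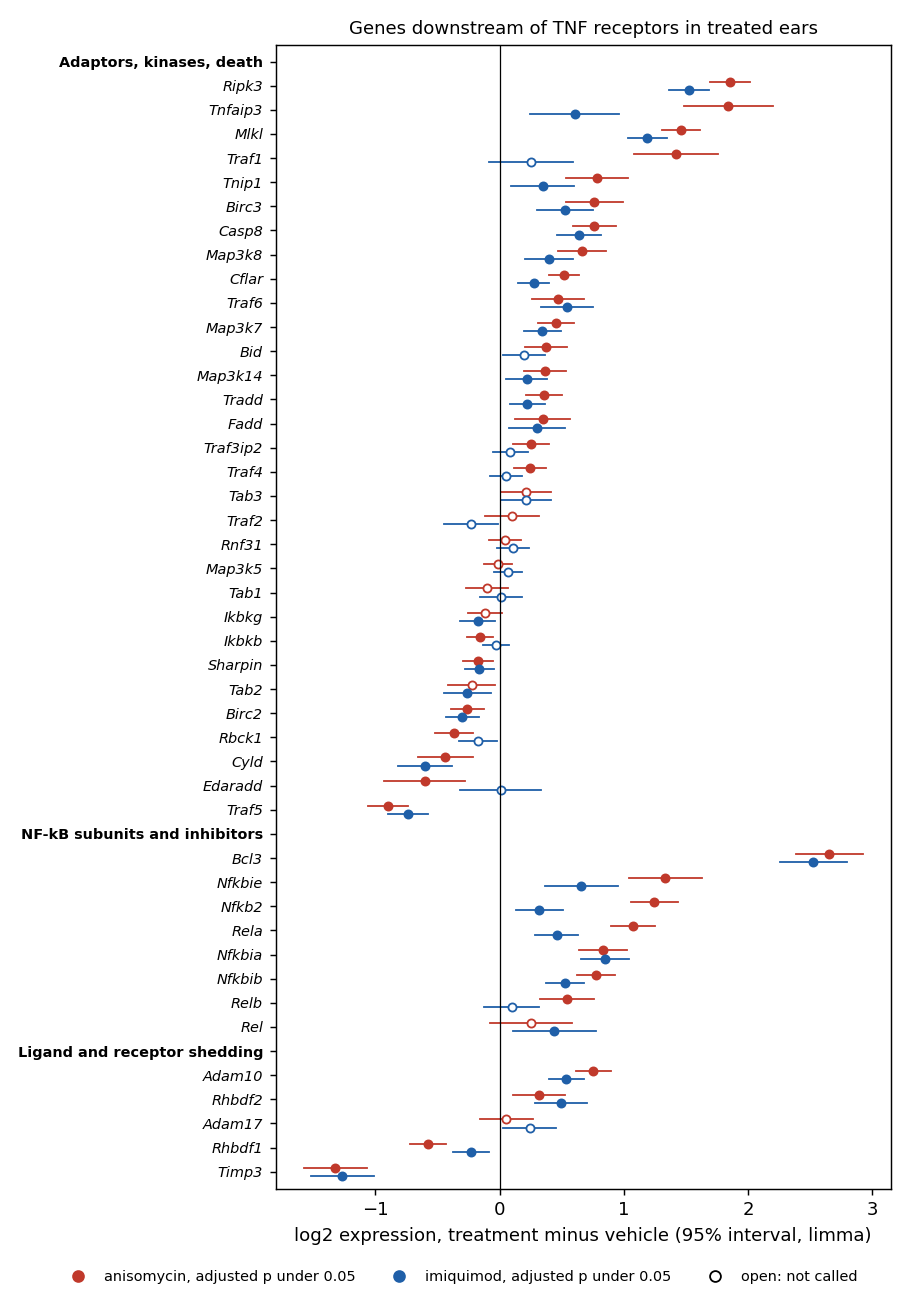
Difference in log2 expression from vehicle (x axis) for measured genes of TNF receptor signalling, grouped as adaptors, kinases and death effectors, as NF-kB subunits and inhibitors, and as shedding genes, for anisomycin (red) and imiquimod (blue), with 95% intervals from limma; filled points passed adjusted p under 0.05. Bcl3 shows rises of 2.65 and 2.53, and the red and blue points of Tnfaip3 (1.84 and 0.60) and Traf1 (1.42 and 0.25) lie apart.

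Promoter sequences are shown for the 3 members whose smaller rise of the 2 treatments was largest, Tnfrsf1b, Tnf and Tnfrsf23, because these rose together, and for the motif windows found in Tnfsf14 and Ltb. They are the bases before the transcription start in RefSeq's annotation of GRCm38.p6, 5′ to 3′ on the gene's strand, and the deposited table itself names no build. Capitals mark a TATA box (TATAAA, or TTTATA where it lies on the opposite strand), the AP-1 motif TGANTCA, or the NF-kB consensus. The Tnfrsf1b bases are chr4:145246871-145247120, the Tnf bases chr17:35202008-35202257 and the Tnfrsf23 bases chr7:143685876-143686125, all on the minus strand. The windows are chr17:57194308-57194367 on the minus strand for Tnfsf14 and chr17:35194395-35194454 on the plus strand for Ltb.
Tnfrsf1b: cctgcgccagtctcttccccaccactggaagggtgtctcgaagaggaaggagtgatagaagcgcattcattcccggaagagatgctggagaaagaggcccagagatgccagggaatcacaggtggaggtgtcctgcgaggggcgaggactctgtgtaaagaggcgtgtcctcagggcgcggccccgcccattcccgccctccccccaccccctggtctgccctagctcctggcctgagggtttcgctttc
Tnf: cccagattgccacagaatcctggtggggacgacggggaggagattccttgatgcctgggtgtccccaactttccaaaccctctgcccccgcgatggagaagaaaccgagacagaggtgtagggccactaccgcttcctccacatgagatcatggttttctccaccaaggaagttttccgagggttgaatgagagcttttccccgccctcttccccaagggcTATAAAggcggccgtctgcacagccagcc
Tnfrsf23: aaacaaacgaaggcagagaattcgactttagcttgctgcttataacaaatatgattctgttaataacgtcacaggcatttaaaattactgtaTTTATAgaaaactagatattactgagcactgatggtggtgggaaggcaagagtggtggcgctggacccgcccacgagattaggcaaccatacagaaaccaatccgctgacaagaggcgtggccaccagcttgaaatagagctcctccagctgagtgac
Tnfsf14 window: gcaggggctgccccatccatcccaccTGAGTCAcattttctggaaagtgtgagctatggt
Ltb window: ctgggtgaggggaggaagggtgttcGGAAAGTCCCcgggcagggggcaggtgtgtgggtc

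Over 250 bases before to 50 after the start, searched on both strands, 10 of the 12 members higher in both treatments had a promoter in the RefSeq table. The NF-kB consensus was found in 1 of these 10, in Ltb at position -87 on the opposite strand, beside 4.51% of all 32851 promoters. The AP-1 motif was found in 1, in Tnfsf14 at -160, beside 7.81% of all promoters. A TATA box was found in Tnf at -29, which is where such a box usually lies, and in Tnfrsf23 at -158 on the opposite strand, beside 13.6% of all promoters. In the 8 promoters of the 6 members lower in both treatments, 0 held any of the 3 motifs. A match describes these letters only, and the search says nothing of sites outside the windows.

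In RefSeq's order of protein-coding genes 21 of the 43 members lie in 8 groups of members, with at most 1 such gene between neighbours. Neighbours did not share their calls throughout. Ltb and Tnf, which sit side by side, rose with both agents while Lta beside them was not called. Tnfsf9 and Tnfsf14 rose with both and Cd70 between them was not called, and Tnfrsf1b rose with both while the adjacent Tnfrsf8 was not called. Ltbr and Tnfrsf1a rose with both agents, and Cd27 in the same group was called higher with anisomycin. The run of Tnfrsf26, Tnfrsf22 and Tnfrsf23 was the only group of 3 in which every member was called in the direct comparison, each higher with anisomycin. Probes of Tnfrsf22 and Tnfrsf23 could share signal, so these calls may not be independent, which was not tested.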

How the data were processed

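Whole ear skin RNA was measured on 9 Affymetrix Mouse Gene 1.0 ST arrays, 3 per group. The authors deposited their log2 expression values in 1 table, made with RMA (background correction, quantile normalization and probe set summary), per the submitters' processing notes. The version of RMA and the arrays normalized together with it are not given in the sources used here. A log2 scale was judged from the range of the values.

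The table has 35556 rows, of which 21789 carry 1 gene symbol in the platform annotation, 1621 several and 12146 none. Rows with 1 symbol were tested. Where a gene had several probe sets, the one with the highest mean over 9 arrays was kept, which left 19938 genes, with no filter on dim genes. Group means were fitted with limma 3.58.1 in R 4.3.3 over all 9 arrays without covariates, leaving 6 residual and 3.16 prior degrees of freedom. Tests are two-sided, adjusted by Benjamini-Hochberg over all genes and called under 0.05. An exact permutation test of 3 against 3 cannot go below p = 0.1, so the small number of arrays limits precision. The fit was also run on simulated data with independent normal noise and few changed genes, unlike these data, which checks the code only.

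The members and lists were chosen with earlier results of these data known. Values on each array are given for members called between the treatments, for the 12 called members of largest change in each treatment and for 16 symbols in every case, and list genes are named by size of change among called ones. The summed level of a marker list is the log2 of its genes' summed linear values. Under the 30th percentile refers to a group's mean among all genes (5.24 to 5.30). The same replicate numbers appear in each group, but arrays of 1 number did not deviate together (correlations -0.201 to 0.196, 2 of 9 pairs above 0.1), so arrays were not paired. Promoters were found for 34 of the 43 members in RefSeq's table. The TATA search was added after seeing the data. Alternatives were a trended, robust prior, dropping the dimmest 30% of genes, repeated quantile normalization, centring on medians or on 1000 genes of stable rank, averaging a gene's probe sets, all rows, array weights, a replicate block, leaving out each array, and fitting only the 2 groups compared.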

Additional observations from a re-analysis of the deposited data

Results flagged for a closer look

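For 4 members the treatments differed in a direct test while, of the comparisons with vehicle, the one with anisomycin passed and the one with imiquimod did not. Of all 19938 genes, 1186 were higher with anisomycin and not called with imiquimod, and 10.8% were higher in the direct test. How many genes met both conditions was not counted. Tnfrsf10b, the death receptor of TRAIL, was 0.87 higher with anisomycin than with imiquimod, and Tnfrsf22, the decoy receptor gene, was 0.76 higher. Tnfrsf9 was 0.49 higher, and Cd27 was 0.19 higher. The differences of Tnfrsf10b and Tnfrsf22 passed under every alternative run, none of which addressed probe signal that Tnfrsf22 could share with Tnfrsf23. That of Tnfrsf9 was lost without anisomycin replicate 1 or 2 or imiquimod replicate 1 or 2 (adjusted p 0.0537 to 0.0611, limma), and that of Cd27 without anisomycin replicate 2 or 3 or any imiquimod array (0.0785 to 0.137). The call of Cd27 was also lost with repeated quantile normalization (0.0846), centring on genes of stable rank (0.0522), all rows tested (0.0652) and the replicate block (0.067).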

How the results depend on the processing

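Of 129 member results (43 genes in 3 comparisons), 90 kept their side of the threshold under every alternative that tested them. None that was called changed sign, but some uncalled results did. The imiquimod difference of Cd40lg, for example, ran from -0.073 to 0.041. Of 57 calls, 43 were kept under every alternative that tested them. Leaving out the dimmest 30% of genes removed 13 members from the test, so 2 of the 43 kept calls, Tnfsf18 with imiquimod and Tnfsf9 with anisomycin, have no value there. The count of members lower with anisomycin than with imiquimod was 2, against 1 with a trended and robust prior, with all rows tested, with the replicate block and with only the 2 groups compared, and 4 with array weights. It ran from 1 to 2 when each array was left out in turn. With array weights 22 members were higher in that comparison instead of 9, and 4536 and 4021 of all genes were higher and lower, instead of 2147 and 1912. Leaving out each array gave 1320 to 2562 genes higher and 1061 to 2214 lower in it, and 8 to 13 members higher with imiquimod than with vehicle, the lowest without imiquimod replicate 3. The replicate block ended the imiquimod calls of Ltb (adjusted p = 0.08) and Tnfrsf18 (0.0522) and the direct calls of Cd27 (0.067) and Tnfrsf1a (0.0705). Samples here share only a number, and 2 arrays correlated best with arrays of their own number. Centring arrays on their medians shifted the median of all genes by 0.05 with anisomycin and 0.04 with imiquimod, and centring on genes of stable rank by -0.08 and -0.07. Among called genes, the share higher with anisomycin moved from 49.0% to 37.1% under the latter and 56.4% under the former, and with imiquimod from 47.7% to 36.4% and 54.7%. For the members the shares were 73.9%, 65.2% and 77.8% with anisomycin, and 56.5%, 45.8% and 59.1% with imiquimod. Why these values moved was not tested.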

Other observations

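The probe set shared by Tnfsf12 (TWEAK, the ligand of Tnfrsf12a), Tnfsf13 and Tnfsfm13 read 7.33, 7.54 and 7.39 on the vehicle arrays, 7.06, 7.09 and 7.13 on the anisomycin arrays and 7.22, 7.19 and 7.11 on the imiquimod arrays. All treated arrays were below vehicle. The difference from vehicle was -0.33 with anisomycin (SE 0.06, limma adjusted p over all rows = 0.0039) and -0.25 with imiquimod (adjusted p = 0.0181), and the treatments differed by -0.08 (adjusted p = 0.487). The value cannot be given to any 1 of these genes.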
